A study of Drosophila melanogaster with 2 samples.

Results

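The genes of programmed cell death listed here are 10 of the 13945 protein-coding genes on the 6 chromosome arms: the IAP antagonists hid, rpr, grim and skl, the caspase inhibitors Diap1 and dnr1, the caspases Dronc and Drice, the adaptor Dark and the transcription factor p53. The gene dnr1 was chosen by its signal, since it hosts the strongest summit of the data. The other 9 are named genes of the core death pathway, listed with earlier results of these data known, so the counts below describe them and are no independent evidence. A summit (the point of highest signal in a called region) was assigned to a gene when it lay in the gene, within 2 kb of it, or nearest to its transcription start site (TSS). The data are chromatin immunoprecipitation followed by sequencing (ChIP-seq) for the homeodomain protein bsh, with an anti-GFP antibody, in 1 group of 2 biological replicates. The group was whole Drosophila melanogaster embryos of mixed sex, 0 to 24 h old, of a transgenic line that stably expresses bsh with GFP at its C-terminal end. Chromatin was sonicated to 200 to 800 bp, both replicates came from this 1 line, and a control experiment named in the labels was not analysed here. The lists of called regions on dm6 were a relaxed list of 30000 regions per replicate, a relaxed list of 30000 regions from the pooled replicates, and the 4447 pooled regions kept by a threshold on irreproducible discovery (IDR), a step meant to keep regions that both replicates rank alike. On dm6 these were the pooled regions of ranks 1 to 4447 by signal. The read depth of each sample is unknown, and no source used here gives the scale of the authors' signal values, which were therefore ranked within a list and not compared between lists.

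In flies, death of a cell is held back by Diap1, a ubiquitin ligase of the inhibitor of apoptosis (IAP) family that binds caspases. The products of hid, rpr, grim and skl bind Diap1 and free the initiator caspase Dronc, which assembles with the adaptor Dark and activates effector caspases such as Drice. The transcription factor p53 acts upstream after DNA damage and induces rpr and hid, and the RING-domain protein dnr1 is known from fly cells as an inhibitor of the caspases Dronc and Dredd, the second of which also acts in the IMD immune pathway.

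Of the 10 genes, 6 had at least 1 IDR summit, and these were dnr1, Diap1, hid, rpr, Drice and p53. This is 60.0%, beside 27.0% of all protein-coding genes under the same rule. The other members, grim, skl, Dronc and Dark, had none. Because dnr1 was chosen on its signal, the count without it is 5 of the other 9 genes. The embryos were analysed whole, so signal in few cells and weak signal in many cells cannot be told apart.

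The count depended on how far from a gene a summit may lie. With summits in the gene body alone, 2 members (dnr1 and Diap1) had one, beside 11.6% of all genes. Within 1 kb the members were 4, beside 20.4%, and within 2 kb they were 5, beside 24.9%. Within 5 kb they were 6, beside 36.2%. When a summit counted only for the gene with the nearest TSS, the members were 4 (dnr1, Diap1, hid and rpr), beside 16.9%. The summits of Drice and p53 were thus near these genes but nearer to the start of a neighbour.

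Gene length also differed among the members, and length classes were added after the values were seen. All 3 members of 10 kb or longer (dnr1, Diap1 and hid) had an IDR summit, beside 51.9% of genes of that length. Of the members from 3 to 10 kb, p53 had one and Dark had none, beside 32.3%. Of the 5 members shorter than 3 kb, rpr and Drice had one, beside 19.3% of genes of that length. The median of the strongest signal at each gene, over the 9 members other than dnr1, was 142.4 in the pooled list, beside 58.5 over all genes, with a gene without a region counted as lowest. In replicate 1 these medians were 104.4 beside 35.9, and in replicate 2 they were 51.1 beside 30.4. With dnr1, which was chosen on this signal, the medians of the members were 191.2, 128.0 and 72.1.

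**Figure D1:**
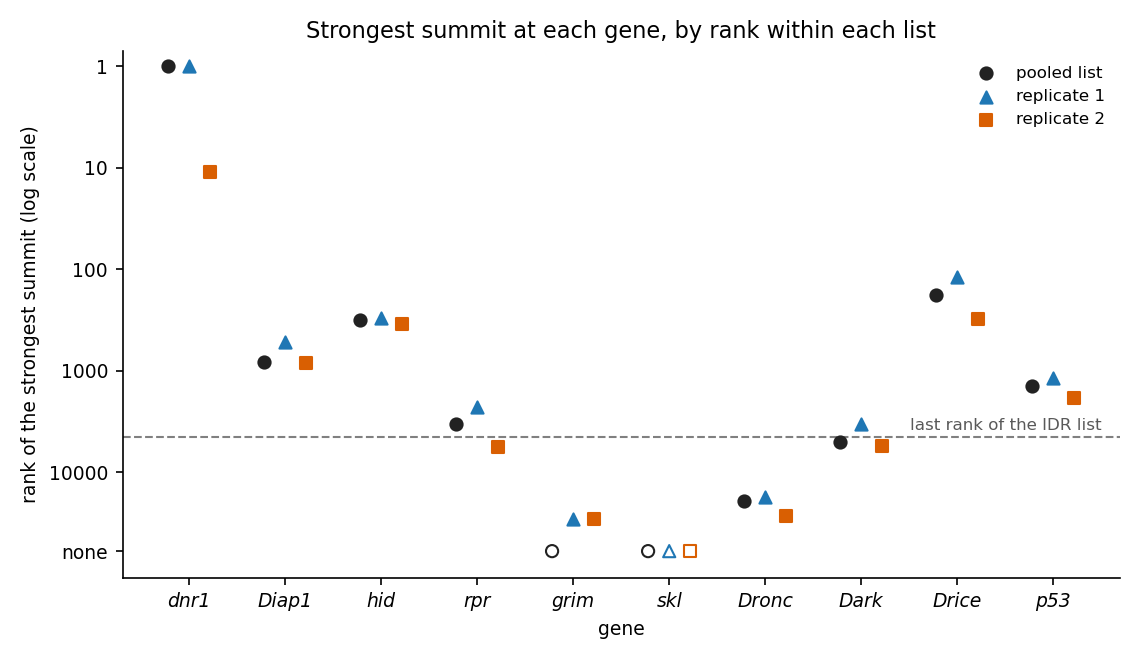
Rank of the strongest summit at each of the 10 genes (log scale, rank 1 at the top) in the pooled list (circles), replicate 1 (triangles) and replicate 2 (squares), with the last rank of the IDR list, 4447, as a dashed line and open symbols for genes without a region. The summit of dnr1 stands at ranks 1, 1 and 11, those of hid and Drice lie between ranks 119 and 343, and grim and skl lie at the bottom.

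The 21 IDR summits of the members lay in 18 separate stretches once overlapping regions were merged. By location, 10 were in introns, 5 at promoters (within 500 bp of a TSS), 5 between genes and 1 in a coding exon. Each of the 21 regions overlapped a region in both replicates. The IDR step is meant to keep regions that both replicates hold, so this follows largely from the filter. The share over all IDR regions is not given here, so these counts say nothing particular about the members. In replicate 1 all 21 matched regions had rank 4447 or better, and in replicate 2 this held for 18, the exceptions being regions of Diap1, hid and rpr. The summits were displaced by a median of 9 bp in replicate 1 and 19 bp in replicate 2 relative to the pooled list, and by at most 220 and 207 bp. Taking as many of the strongest regions from each replicate as the IDR list holds, 7 members had a summit in replicate 1, Dark being the addition, beside 27.0% of all genes. In replicate 2 the members were 5, without rpr, beside 28.0%. Among the 2223 strongest IDR regions, 5 members had a summit, again without rpr, beside 16.4% of all genes.

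The gene dnr1 (FBgn0260866) spans 29.81 kb on the minus strand of arm 2R, from 22563152 to 22592964. Its strongest summit, at 22569981 in its first intron, lay 22983 bp downstream of its only annotated TSS. The nearest start site was that of CG11362, 7674 bp away. The region, from 22569680 to 22570533, was 854 bp wide, beside a median of 440 bp over the IDR list. Its pooled signal was 2129.83, rank 1, which is the value that put dnr1 in the list of genes. In replicate 1 the matched region had a signal of 1147.52 and rank 1, and in replicate 2 it had 980.12 and rank 11. All 10 regions ahead of it in replicate 2 were on the mitochondrial chromosome, and without them its rank was 1. The replicate summits lay 28 and 8 bp from the pooled summit. Of the bases in the region, 11.7% were marked as repeats in the genome sequence, beside a median of 19.0% over all IDR regions.

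The dnr1 gene had 4 further IDR summits, all far weaker than the first. A second summit of the same region, at 22570210, had a signal of 469.45 (rank 343) and ranks of 276 in replicate 1 and 265 in replicate 2. Another intronic summit at 22572021 had a signal of 261.54 (rank 1216), with ranks of 1003 and 1790. The dnr1 promoter itself carried a summit 29 bp upstream of the TSS, with a signal of 229.0 (rank 1514). The promoter was one of the summits that the replicates ranked differently, at 2515 with a signal of 98.48 in replicate 1 and at 1094 with 124.7 in replicate 2. The fifth, 1891 bp beyond the 3′ end, was 804 bp from the TSS of px and had a signal of 156.55 (rank 2897). In the relaxed lists dnr1 had 26 pooled, 24 replicate 1 and 24 replicate 2 summits, of which 20, 19 and 19 were in the gene. An annotated diver transposable element of 6.1 kb in that intron held 0 pooled summits. How reads from repeats were placed is not known here, so this count cannot show that signal was absent.

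The IDR regions whose ranks in the pooled, replicate 1 and replicate 2 lists were nearest to those of the dnr1 summit were found by the summed absolute difference of log10 rank. The promoter region of larp, an RNA-binding protein gene, was nearest, with ranks 2, 3 and 20 and a summed difference of 1.04. An intronic region of CG32772 followed, with ranks 3, 4 and 21 and a difference of 1.36. An intergenic region nearest to RYBP, a Polycomb-related gene, had ranks 5, 2 and 26 and a difference of 1.37. All 3 ranked lower in replicate 2 than in replicate 1, with the mitochondrial regions of replicate 2 counted. They were picked by these ranks, so this likeness to dnr1 is no separate result.

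The IAP antagonists lie within 272.2 kb on 3L, all on the minus strand, in the order hid, grim, rpr and skl, with other genes between hid and grim. Their signal was uneven. The gene hid (FBgn0003997, 3L 18167745 to 18185641, 17.9 kb), whose product binds Diap1, had 4 IDR summits, and all of them lay upstream of the gene. The strongest, 5018 bp upstream of the TSS, had a pooled signal of 485.9 (rank 315), with 285.45 (rank 304) in replicate 1 and 211.57 (rank 343) in replicate 2. The promoter summit, 371 bp upstream of the TSS, had 345.24 (rank 691), with 199.51 (rank 698) in replicate 1 and 145.25 (rank 782) in replicate 2. The ranks of both were therefore close in the 2 replicates. The other summits, 7363 and 6325 bp upstream, had signals of 170.81 (rank 2503) and 141.5 (rank 3412), and the weaker of these ranked 4939 in replicate 2. Within the gene body 11 pooled summits were called, none of which was in the IDR list.

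The sequences around these first 2 hid summits are shown because they are the strongest stretches assigned to an IAP antagonist. They are 201 bp each, centred on the summit base, from the RefSeq copy of the dm6 assembly, plus strand, 5′ to 3′. The capitals mark the homeodomain-type word CAATTA, read here on the plus strand as TAATTG. It occurs 2 times in the promoter window, and since hid lies on the minus strand it reads CAATTA in the direction of the gene. The upstream window held none of the 6 words searched.
hid upstream, chr3L:18190559-18190759: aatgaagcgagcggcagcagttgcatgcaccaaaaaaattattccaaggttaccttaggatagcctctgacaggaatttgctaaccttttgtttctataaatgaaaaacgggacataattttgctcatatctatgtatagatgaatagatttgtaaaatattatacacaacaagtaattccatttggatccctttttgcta
hid promoter, chr3L:18185912-18186112: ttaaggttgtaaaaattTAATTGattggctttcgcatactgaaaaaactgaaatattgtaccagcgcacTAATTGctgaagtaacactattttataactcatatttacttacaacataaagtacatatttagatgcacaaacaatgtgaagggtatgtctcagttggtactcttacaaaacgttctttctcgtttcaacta

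The neighbourhood of hid was dense in summits. Between hid and grim, over 117.1 kb, lay 22 IDR summits, or 18.79 per 100 kb, beside 3.65 per 100 kb over arm 3L and 3.32 over the 6 arms. They lay from 0.37 to 95.79 kb upstream of the hid TSS, with a median signal of 192.3. In fixed bins of 100 kb, added after the values were seen, the 281 bins of 3L had a median of 3 IDR summits and at most 18, and 6 bins had 15 or more. The stretch spans parts of 3 such bins, which held 7, 16 and 0 IDR summits, so the densest bin of the arm was elsewhere. All 22 regions overlapped a region in both replicates, with rank 4447 or better for 20 in replicate 1 and for 18 in replicate 2. Here too the overlap follows largely from the IDR filter, and the share over all IDR regions is not given. Only 4 of the 22 were nearest to the hid TSS. Of the others, 10 were nearest to CheA75a, 6 to CG7320 and 2 to CG5103, which are other genes of the stretch.

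A group of summits farther upstream of hid was nearly as strong as the summit at 5.02 kb. Its strongest summit, at 50.37 kb, had a signal of 477.31 and ranks of 357 in replicate 1 and 332 in replicate 2. A summit at 53.14 kb had 436.05, with ranks of 419 and 425. A further summit at 46.83 kb had 401.04, with ranks of 528 and 510. By the nearest-TSS rule these summits count for CheA75a and not for hid or grim.

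**Figure D2:**
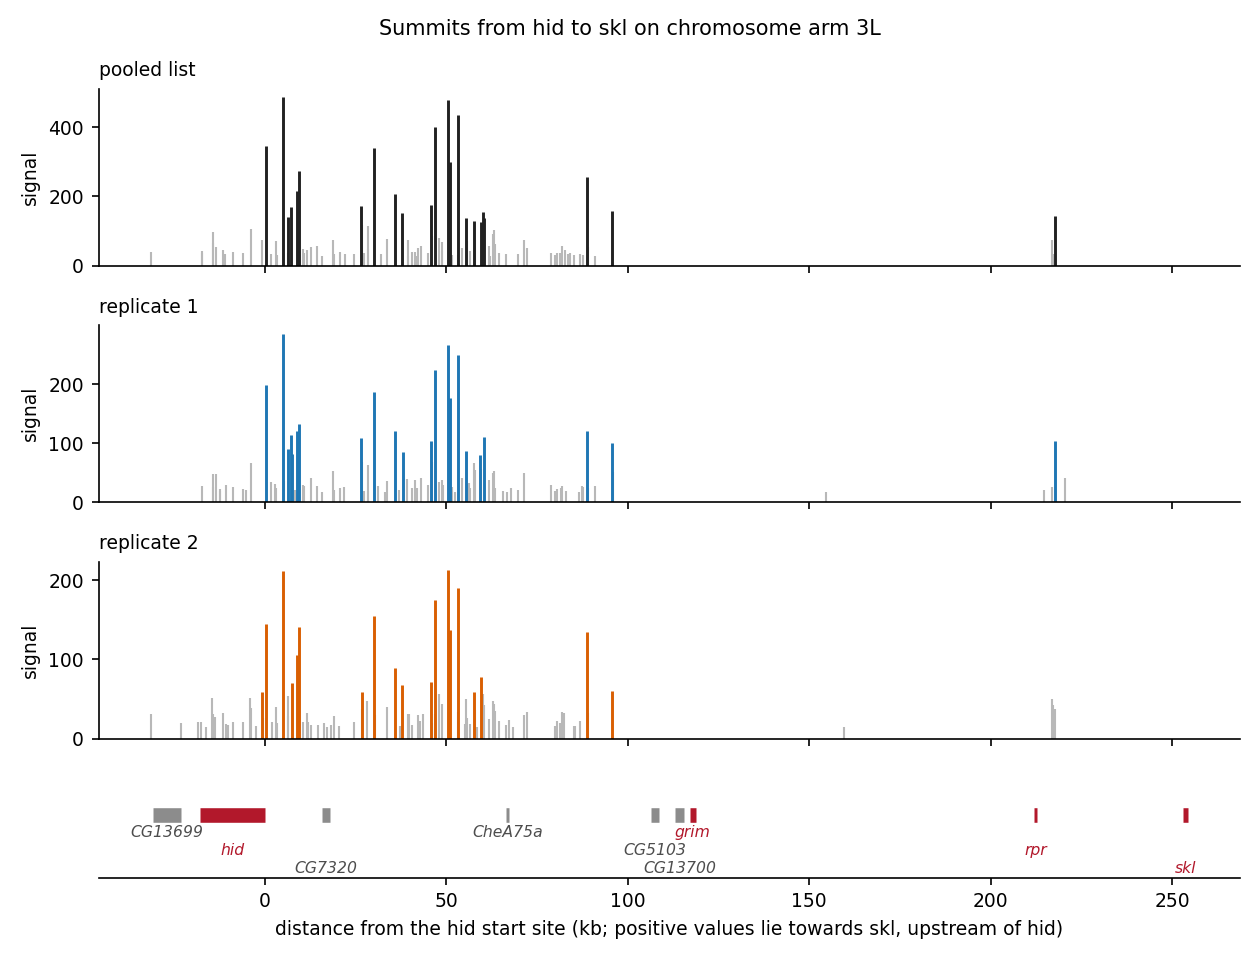
Signal of every summit from hid to skl in the pooled list, replicate 1 and replicate 2, against distance in kb from the hid TSS, with colour for summits of rank 4447 or better and grey for weaker ones, and genes drawn below. The 22 IDR summits upstream of hid end at 95.79 kb, and a gap around grim and towards rpr separates them from the rpr summit at 217.74 kb.

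The gene grim (FBgn0015946, 3L 18302719 to 18304417, 1699 bp) had no pooled summit. By its nearest TSS alone it had 1 summit in replicate 1, 35839 bp upstream, with a signal of 17.87 and rank 28918. Replicate 2 had 1 at another position, 40765 bp upstream, with 14.58 and rank 29245. Both were near the end of lists of 30000 regions, and neither lay at grim itself. The gene skl (FBgn0036786, 3L 18438561 to 18439942, 1382 bp) had no summit in any of the 4 lists. Between grim and rpr, over 93.1 kb, the pooled list held 0 summits and each replicate held 1. The dense stretch upstream of hid thus ended before grim.

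The gene rpr (FBgn0011706, 3L 18397535 to 18398435, 901 bp), the gene known as reaper, had 1 IDR summit, 4947 bp upstream of its TSS. Its pooled signal was 142.42 (rank 3374). The replicates ranked it differently, at 2273 with a signal of 104.36 in replicate 1 and at 8932 with 37.66 in replicate 2. The strongest rpr summit of replicate 2 was another one, with a signal of 50.36 and rank 5611, so that rpr had no summit among the strongest regions of that replicate. The rank of the rpr summit was thus better in replicate 1 than in replicate 2.

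The rpr region holds a match to the p53 consensus element, which has 2 decamers and 20 bp in all, a search added after the position of the summit was seen. The match, at 3L 18403257 to 18403276, had 2 mismatches, its centre lay 115 bp from the summit, and its end nearer to rpr lay 4822 bp upstream of the TSS. The same bases are known from earlier work as an element of rpr that p53 binds and that responds to radiation. Within 220 bp of the summit, 35 of all 4447 IDR summits (0.787%) had a match with at most 2 mismatches, and 1 of the 21 member summits did. With at most 3 mismatches these were 295 (6.63%) of all and 2 of the members, the added one being the upstream hid summit, 44 bp from the centre of the match. A match describes the sequence only, and binding of p53 was not measured. The stretch is shown from before the match to 100 bp past the summit, which is base 146, on the plus strand of dm6 as in RefSeq, with the match in capitals.
rpr upstream, chr3L:18403237-18403482: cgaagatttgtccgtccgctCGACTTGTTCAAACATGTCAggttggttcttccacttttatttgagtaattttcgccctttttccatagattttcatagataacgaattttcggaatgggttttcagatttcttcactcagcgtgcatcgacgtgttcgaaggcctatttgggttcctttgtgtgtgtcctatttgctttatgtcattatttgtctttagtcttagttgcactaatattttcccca

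The p53 gene (FBgn0039044, 3R 23049657 to 23054082, minus strand, 4426 bp) had 1 IDR summit, 887 bp beyond its 3′ end, between genes and 556 bp from the TSS of CG17121. It had a pooled signal of 240.04 (rank 1417), with 151.61 (rank 1183) in replicate 1 and 93.11 (rank 1844) in replicate 2. The summit at the p53 promoter, 37 bp from the gene, fell just outside the IDR list, with a signal of 115.9 (rank 4678). The replicates differed there, with rank 2908 and a signal of 90.46 in replicate 1 and rank 20931 and 20.14 in replicate 2. The IDR summit that counts for p53 is thus nearer to CG17121 than to any p53 start site. Its 201-bp window is shown as in RefSeq, dm6, plus strand, because it is 1 of the 3 member windows with the word CAATTA, in capitals as TAATTG.
p53 downstream, chr3R:23048670-23048870: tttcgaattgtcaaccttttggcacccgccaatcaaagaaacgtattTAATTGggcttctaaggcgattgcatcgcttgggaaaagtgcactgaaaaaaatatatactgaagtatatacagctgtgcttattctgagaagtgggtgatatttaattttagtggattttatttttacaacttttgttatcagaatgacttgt

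The gene Diap1 (FBgn0260635, 3L 16038410 to 16051034, minus strand, 12.62 kb, 5 annotated start sites) had 9 IDR summits, more than any other member, and 7 were in the gene. No Diap1 summit stood far above the others, whereas dnr1 was chosen for its strongest summit. The strongest Diap1 summit of the pooled list, in an intron at 16043460, had a signal of 320.36 (rank 819). It had 178.15 (rank 862) in replicate 1 and 135.06 (rank 920) in replicate 2, and was the strongest in neither. In replicate 1 the strongest was at 16041540, with 226.27 (rank 517). In replicate 2 it was at 16037163, beyond the 3′ end, with 141.47 (rank 833). A second intronic summit, at 16046227, had 292.63 (rank 973), with ranks of 1168 and 856. Those at 16041327 and 16041537 had 282.53 and 282.44, and both overlapped the same region of replicate 1 (rank 517) and of replicate 2 (rank 1926). The replicate 1 summit lay 3 bp from 16041537 and 213 bp from 16041327. In replicate 2 the summit lay 3 bp from 16041327 and 207 bp from 16041537. Each pooled summit thus had a summit within 100 bp in 1 replicate only. The order of the summits therefore differed between the replicates.

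Of the Diap1 promoters, 2 carried an IDR summit. The summit 60 bp from a start site had a signal of 199.34 (rank 1911), with ranks of 2054 and 1899. The summit 2 bp from another start site had 127.6 (rank 4034), with rank 3364 in replicate 2. In replicate 1 the overlapping region, of rank 4015, had its summit 220 bp away, and no summit lay within 100 bp. A summit 1273 bp beyond the 3′ end, in a coding exon nearest to CG5895, had 247.9 (rank 1336), with ranks of 2052 and 833. Upstream, a summit 1614 bp from the gene and 689 bp from the TSS of Mbs had 136.75 (rank 3632) and ranked 6548 in replicate 2. The window of the intronic summit at 16043460 is shown because it is the strongest of Diap1 in the pooled list. It is from RefSeq, dm6, plus strand. It held none of the 6 words and so has no capitals.
Diap1 intron, chr3L:16043360-16043560: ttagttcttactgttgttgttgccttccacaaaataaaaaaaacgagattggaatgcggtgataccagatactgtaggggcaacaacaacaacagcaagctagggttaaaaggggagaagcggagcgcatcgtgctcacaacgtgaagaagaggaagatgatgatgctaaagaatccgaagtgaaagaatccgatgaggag

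**Figure D3:**
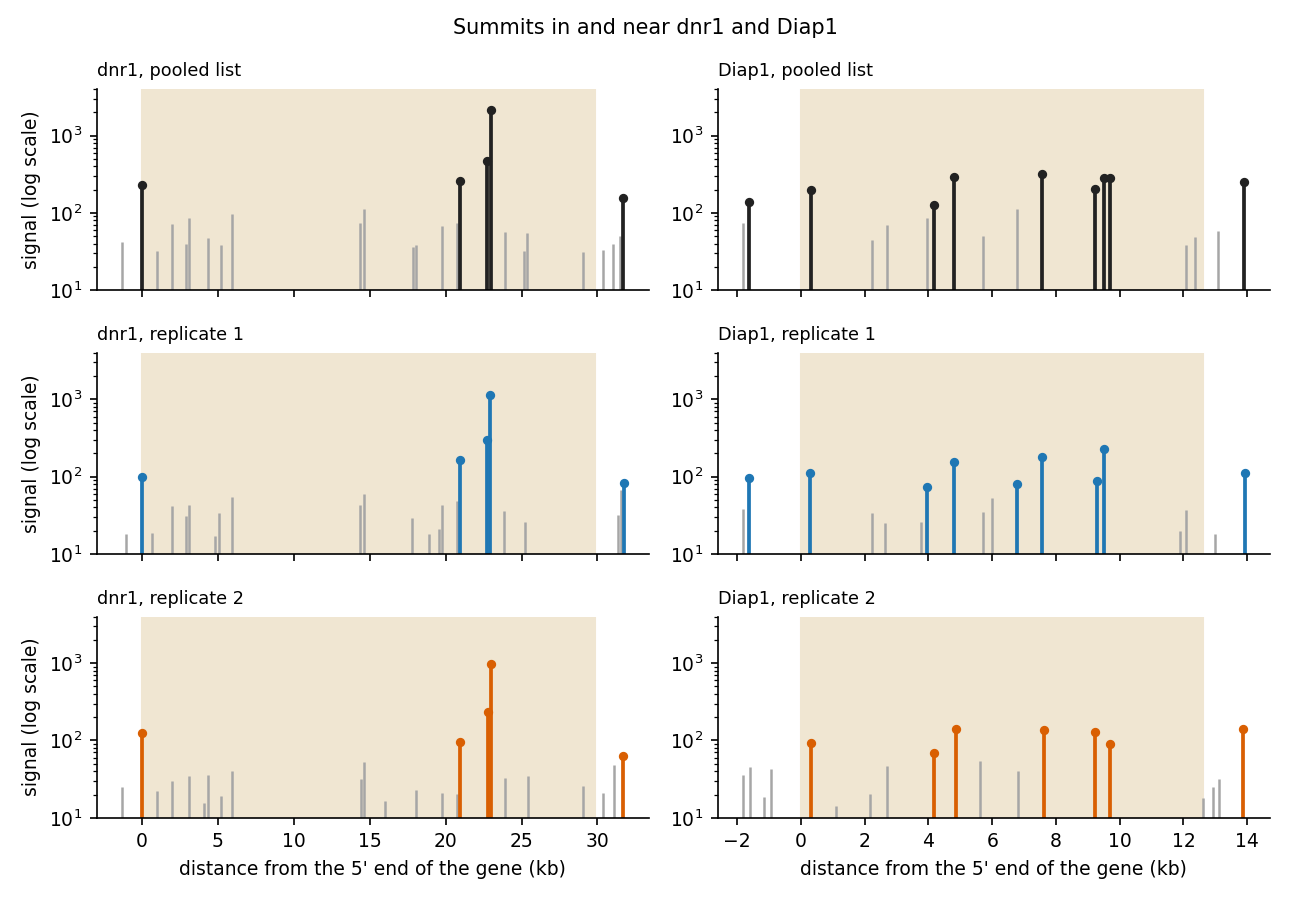
Signal of each summit (log scale) in and near dnr1 (left) and Diap1 (right), against distance in kb from the 5′ end of the gene, in the pooled list and each replicate, with colour for summits of rank 4447 or better, grey for weaker ones and shading for the gene. In dnr1 the summit with signal 2129.83 stands above 4 others, and in Diap1 the 9 IDR summits run from 127.6 to 320.36.

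The effector caspase gene Drice (FBgn0019972, 3R 29799658 to 29801584, plus strand, 1927 bp) had 1 IDR summit, the second highest in signal of the members' strongest summits after that of dnr1. Its pooled signal was 601.12 (rank 181), with 380.48 (rank 119) in replicate 1 and 217.05 (rank 312) in replicate 2. The summit lay 1386 bp beyond the 3′ end of Drice and 25 bp from the TSS of Etfb, which encodes a subunit of the electron transfer flavoprotein. It counts for Drice only through the distance of 2 kb, and Drice itself had no IDR summit at its own start. The stretch between Etfb and CG7789, whose starts face away from each other, is shown because the summit belongs to these neighbours by position. It is from RefSeq, dm6, plus strand, with the summit at base 25, and held none of the 6 words within 100 bp of the summit.
Etfb and CG7789, chr3R:29802946-29803195: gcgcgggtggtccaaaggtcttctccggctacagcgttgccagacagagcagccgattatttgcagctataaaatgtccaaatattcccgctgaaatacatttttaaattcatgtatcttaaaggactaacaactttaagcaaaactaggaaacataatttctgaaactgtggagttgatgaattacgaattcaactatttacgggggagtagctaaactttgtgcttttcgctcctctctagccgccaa

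The initiator caspase gene Dronc (FBgn0026404, 3L 9968479 to 9971002, plus strand, 2524 bp) had 1 summit in each relaxed list and none in the IDR list. Its pooled signal was 41.86 (rank 19187), with 27.79 (rank 17414) in replicate 1 and 15.78 (rank 27124) in replicate 2. This weak summit lay 1874 bp beyond the 3′ end, at the promoter of CG42455.

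Dark (FBgn0263864, 2R 17020027 to 17026703, plus strand, 6677 bp), the adaptor of the Dronc complex, had 7 pooled summits below the IDR list. The strongest, 178 bp beyond the gene and 309 bp from the TSS of RhoGEF2, had a signal of 110.77 (rank 5027). The Dark promoter, 263 bp from its TSS, had 94.93 (rank 6473), with 58.66 (rank 5917) in replicate 1 and 39.19 (rank 8430) in replicate 2. The strongest Dark summit of replicate 1, with 82.77 (rank 3368), was within the 4447 strongest of that list, and that of replicate 2, with 51.05 (rank 5463), was not. Both lay beyond the gene, at 305 bp (replicate 1) and 1120 bp (replicate 2) from the TSS of RhoGEF2.

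The lowest signal in the IDR list was 119.62. The member summits just inside it were those of Diap1 with 127.6 and 136.75 and of hid with 141.5. Just outside it were those of p53 with 115.9, dnr1 with 113.91, Diap1 with 112.76, Dark with 110.77 and hid with 104.53. At the distance of 2 kb, the nearest inside were the summits 1891 bp from dnr1 and 1614 bp from Diap1. Just outside were IDR summits 3997 and 4945 bp from dnr1, with signals of 184.87 and 122.06, and 3027 bp from p53, with 165.49. By rank, Dark is the next member that a longer IDR list would have added. It would enter through its summit at rank 5027, which lay 309 bp from the TSS of RhoGEF2.

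Other genes of cell death were described from a list of 43 genes in 7 roles. Of these, 19 (44.2%) had an IDR summit, beside 27.0% of all genes. The median of the strongest pooled signal was 112.8, beside 58.5 for all genes. This list, too, was drawn up with earlier results of these data known. In a mixed group, labelled in the list as regulators of hid and rpr activity but not limited to such genes, 4 of 5 had a summit. The strongest was at scyl, an inhibitor of TOR signalling, with a signal of 1380.12 (rank 11) 6070 bp from its TSS and ranks of 11 in replicate 1 and 22 in replicate 2. Its paralog chrb had 188.22 (rank 2112), the zinc finger gene klu had 611.71 (rank 168) and Prx4, a peroxiredoxin gene, had 316.16 (rank 837) nearest to scramb2. The gene eIF3m had none.

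The counts by role, here and below, are of few genes each and stand beside the 27.0% of all genes with an IDR summit. Of 7 genes of mitochondria and the Bcl-2 family, 3 had an IDR summit. The cytochrome c gene Cyt-c-d, which is needed for caspase activation in spermatids, had a signal of 656.47 (rank 135), 131 bp from the TSS of CG31808. The other cytochrome c gene, Cyt-c-p, had 225.98 (rank 1560), and the nuclease gene EndoG had 167.18 (rank 2579). Buffy, Debcl, HtrA2 and AIF had none. Of 6 engulfment genes, 2 had a summit: ced-6, an adaptor gene, with 474.79 (rank 333), and crq, a scavenger receptor gene, with 404.1 (rank 489) 6128 bp away. The genes drpr, Ced-12, NimC4 and pall had none.

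Of 7 genes for IAPs and ubiquitin enzymes, 3 had an IDR summit. Diap2, the second IAP gene, had a signal of 422.09 (rank 449), 1584 bp from the gene and nearer to bdg. The ubiquitin-conjugating enzyme gene eff had 329.65 (rank 764), and Ubr3, a ubiquitin ligase gene, had 238.79 (rank 1424) nearest to orion. Bruce, Det, morgue and ntc had none. Of the other 5 caspase genes, Decay had 172.93 (rank 2452) nearest to Gr89a and Dcp-1, an effector caspase gene, had 157.97 (rank 2836) nearest to pita. Dredd, Strica and Damm had none.

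Of 7 TNF and JNK genes, 3 had one, namely Traf6 with 198.48 (rank 1927) nearest to CG15337, hep, which encodes a kinase that activates JNK, with 171.37 (rank 2486), and Traf4 with 132.37 (rank 3819). The ligand gene egr, its receptor genes wgn and grnd, and bsk, which encodes JNK, had none. Of 6 genes of p53 and DNA damage signalling, Xrp1 had 169.19 (rank 2534) and Corp had 152.99 (rank 3002), both at their own promoters. The genes lok, tefu, mei-41 and nbs had none.

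The IMD pathway, in which dnr1 and Dredd also act, was described from a list of 20 genes, also drawn up with earlier results known, of which 8 (40.0%) had an IDR summit, beside 27.0% of all genes. The median of the strongest pooled signal was 95.9, beside 58.5 over all genes. The genes Diap2, Dredd and eff are in both lists. None of the 2 receptor genes and none of the 2 genes of transcription had a summit. Of the 8 kinases and ubiquitin enzymes, 5 had one. They were Tab2 with 644.58 (rank 141) nearest to Acadvl, the E2 genes ben with 199.7 (rank 1902) and Uev1A with 170.24 (rank 2519), and Diap2 and eff. The adaptor gene imd had 488.06 (rank 312), 227 bp from the gene and nearer to Dp1, and of the negative regulators the ubiquitin ligase gene POSH had 482.18 (rank 320) and the deubiquitinase gene scny had 336.72 (rank 734).

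**Figure D4:**
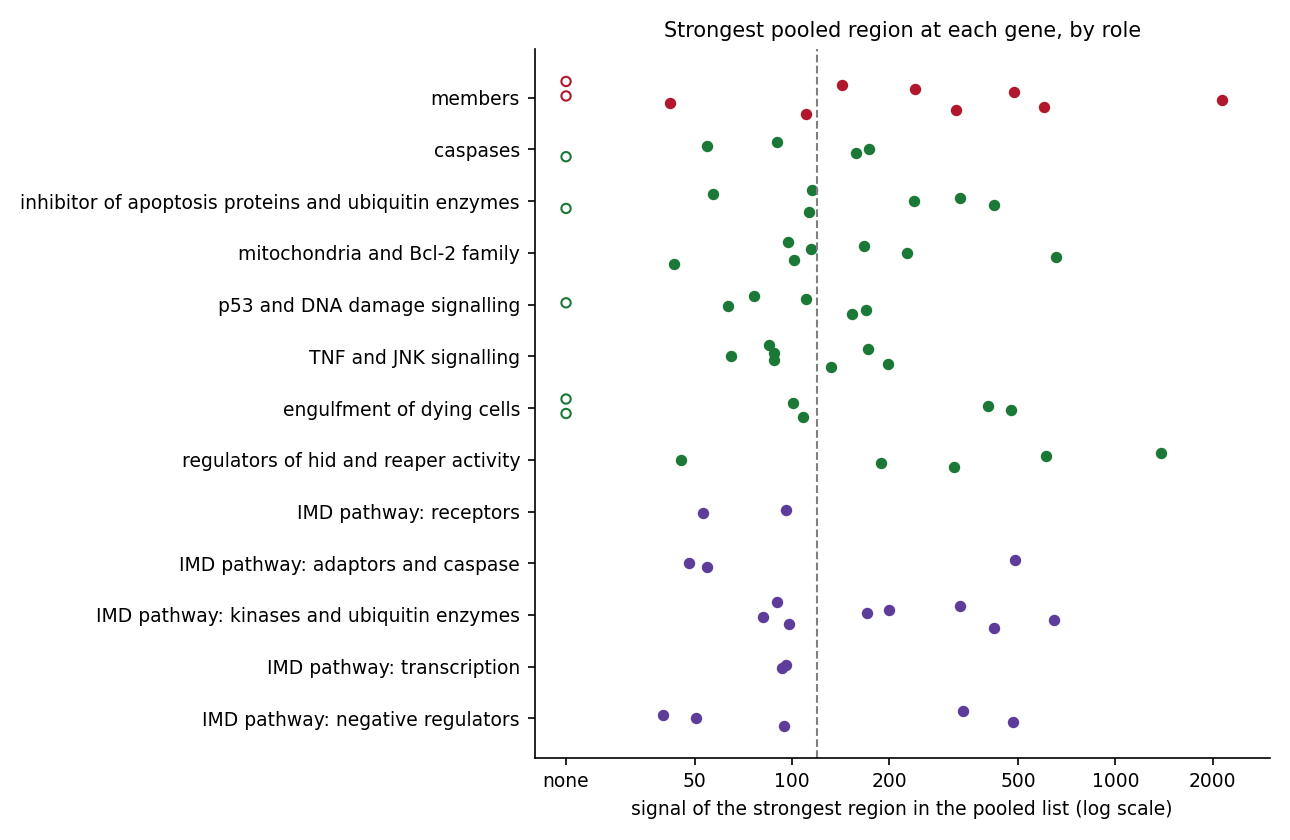
Signal of the strongest pooled region (log scale) at each of the 10 members (red), the 43 other cell death genes (green) and the 20 IMD genes (purple), by role, with open circles for genes without a region and the lowest IDR signal, 119.62, as a dashed line. The members run from no region to 2129.83, and 1380.12 at scyl is the highest value in the other lists.

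The sequence within 100 bp of each member summit was searched on both strands for 6 words, and each count stands beside the share of all 4447 IDR summits with that word. The homeodomain core TAATTA was at 0 of 21 member summits, beside 13.6%. The related CAATTA was at 3, beside 15.9%, namely those at the hid promoter, near p53 and upstream of Diap1. GAGAGA, part of the repeat that the GAGA factor binds, was at 4, beside 16.3%, of which 3 were of Diap1 and 1 of dnr1. ACACTG was at 0, beside 14.6%, TGANTCA, the AP-1 type word, was at 0, beside 4.3%, and TATCGATA was at 0, beside 0.742%. With windows of 200 bp on each side TAATTA was at 2 and CAATTA at 7, beside 21.2% and 28.2%. The GC content of the windows had a median of 39.3% (22.9 to 55.7%) at the members, and of 37.3% over all IDR summits. In a check added after the values were seen, 11 of 21 member regions (52.4%) had over 20% of their bases marked as repeats, beside 46.5% of all IDR regions.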

How the data were processed

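Region lists on dm6 were analysed for 2 biological replicates of 1 group, as the labels give them. The authors deposited lists per replicate, for pooled reads, and after IDR thresholding, per the file records. No source used here names the aligner, the peak caller or the IDR threshold. The signal value of each region is the authors' own and was used to rank regions within a list. The deposited −log10 q-value reached its highest value, 4.15, in 7005 of the 30000 pooled regions and was not used for ranking. The deposited column of summit offsets, an unscaled position, gave the summits. The lists hold no read numbers, so depth is unknown. The dm3 lists and the control were not used here.

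Coordinates are 1-based. Genes came from Ensembl release 115 (BDGP release 6), and sequence from the RefSeq copy of that assembly. Summits were assigned by position, matched between lists by an overlap of at least 1 bp, and counted with pandas 2.3.3 and numpy 2.4.6 under Python 3.11.15, and plotted with matplotlib 3.10.9. Of these steps, only the assignment of summits to genes was tested on simulated data. No statistical test was made, since there was 1 group and its control was not analysed here, and counts stand beside those over all genes. The members and gene lists were chosen with earlier results of these data known. Named were all 10 members, every listed gene with an IDR summit (the others as counts and names), the 3 regions most like the dnr1 summit, and genes nearest to member summits. Alternatives were other distances, each replicate, stronger regions, merged regions and other word windows.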

Additional observations from a re-analysis of the deposited data

Results flagged for a closer look

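In replicate 2, 10 regions on the mitochondrial chromosome had more signal than the dnr1 summit, out of 13 mitochondrial regions in that list. The chromosome is outside the genes and arms described above, and replicate 1 and the pooled list held 0 such regions. The dnr1 summit ranked 11 in replicate 2 with them and 1 without them. The source of the mitochondrial regions was not tested.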

How the results depend on the processing

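With summits in the gene body only, members with a summit were 2, other cell death genes 9 and IMD genes 4, against 6, 19 and 8 under the main rule. Other distances and nearest-TSS assignment gave 4 to 6 members, beside 16.9% to 36.2% of all genes. Among the 2223 strongest IDR regions the other cell death genes were 12 (27.9%), beside 16.4% of all genes. Using 1 replicate alone, the members were 5 to 7, the other cell death genes 19 to 20 and the IMD genes 9 to 11. The share of all genes was 27.0% in replicate 1 and 28.0% in replicate 2. Summits from hid to skl were 19 to 22. The rank of the dnr1 summit was 1 to 11, and 11 was without replicate 1, where mitochondrial regions led. Within 200 bp of the summit, TAATTA was at 2 of 21 member summits (21.2% of all IDR summits), CAATTA at 7 (28.2%), TGANTCA at 2 (8.61%) and ACACTG at 2 (25.2%). Within 50 bp GAGAGA was at 0 (7.92%). Wider windows hold more words by construction. Member regions shared by the replicates were 21 by any overlap and 17 at 50% overlap or summits within 100 bp. All came from the IDR list, which favours such sharing. No paired analysis was possible because all samples belong to 1 group. Depth is unknown, so what it limits cannot be stated.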
